A study of Arabidopsis thaliana with 12 samples.

Results

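The largest proteins of Arabidopsis thaliana are encoded by few genes. Of 27445 nuclear genes in the deposited tables, 78 had a coding sequence of at least 6000 nucleotides in the RNA-seq table, out of 27655 genes in all when chloroplast and mitochondrial genes are included. These 78 very long coding genes were chosen by length alone. The study sampled whole Col-0 seedlings, wild type and 7 days old, grown in shaken liquid medium with 16 hours of light and 8 hours of dark. All of them had received the solvent DMSO at 0.1% of the medium 3 hours after lights on and were harvested 20 or 60 minutes later, so no untreated seedlings enter the comparison. Ribo-seq (6 libraries), which sequences the RNA fragments that ribosomes shield from nuclease (footprints), was set against RNA-seq of rRNA-depleted total RNA (6 libraries). Each table holds 1 pooled value per gene and assay, so no value below carries a spread between libraries and no difference could be tested against replicates.

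A ribosome that translates a very long coding sequence stays on it for longer than on a short one, and ribosomes already loaded travel along it in line. If initiation were equally frequent on all mRNAs and elongation equally fast, the number of footprints per nucleotide would not depend on length. Ribo-seq TPM divided by RNA-seq TPM, both already scaled by length, is therefore commonly read as the ribosome density of an mRNA. The proteins encoded by very long genes in plants include kinases of the PI3K-like family, chromatin remodelers, the core of the spliceosome, HECT-type ubiquitin ligases, lipid transfer proteins of the VPS13 type, BEACH proteins of membrane traffic, and assembly factors of the ribosome.

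The lengths in the tables are coding lengths. Among genes with a single isoform, 16748 of 16748 had the same coding length in the TAIR10.1 annotation, which supplied names and positions. Members had a median of 3 isoforms, and lengths of genes with several isoforms were not checked in this way. Some of those lengths were fractional, such as 6481.42 nucleotides for TIL1 (AT1G08260). The members encode proteins of 1999 to 5393 residues, with a median of 2333.5 residues. The longest was MDN1 (AT1G67120, chr1:25069428-25095638, minus strand), which encodes midasin, a giant ATPase of large ribosomal subunit assembly. The other members among the 5 longest were BIG (AT3G02260), needed for auxin transport, the RING finger gene AT5G23110, and the lipid transfer genes AT4G17140 and AT1G48090. Of the 78 members, 13 were longer than 10000 nucleotides and 39 were shorter than 7000 nucleotides. The members next to the limit were AT1G22060 (6000 nucleotides, log2 ratio -0.30) and MOM1 (6006 nucleotides, -0.98). The nearest genes left out were AT2G35630 (5932 nucleotides, -0.31) and AT2G40030 (5931 nucleotides, -0.80). Counted by the lengths in the Ribo-seq table, 3 members would fall under the limit.

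Total expected counts were 299584069 in Ribo-seq and 51390094 in RNA-seq, where a count is a footprint in Ribo-seq and a fragment of mRNA in RNA-seq. Photosynthetic marker genes of the shoot (RBCS1A, LHCB1.1, LHCB1.3, PSBO1) lay at 1677 to 9676 TPM in Ribo-seq and 1320 to 7470 TPM in RNA-seq. Root marker genes (CASP1, EXPA7, COBL9, PHT1;1) lay at 8.80 to 73.8 TPM in Ribo-seq and 6.14 to 69.2 TPM in RNA-seq. Both kinds of tissue were thus present in both tables, although the descriptions of the Ribo-seq samples name root.

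Most very long genes were transcribed at a moderate level. Their median was 12.6 TPM in RNA-seq, against 4.75 TPM for shorter nuclear genes, and 62 of the 78 exceeded that level. Among genes over 0.1 TPM in RNA-seq the gap was smaller, with medians of 13.2 TPM in members and 8.46 TPM in shorter genes. In RNA-seq, 68 of the 78 lay between 2 and 50 TPM and only 4 above 50 TPM. In Ribo-seq the members had a median of 5.72 TPM, against 4.38 TPM for shorter genes, so that their lead over shorter genes was smaller in footprints than in RNA. They took 0.804% of the nuclear counts in Ribo-seq and 2.03% in RNA-seq. Since the tissue is a mixture, fewer cells that use a gene and less RNA per cell cannot be told apart in any of these levels. At least 10 counts in both assays were found for 77 of the 78 members, beside 74.2% of all nuclear genes. Counts are not scaled by length, so this contrast follows in part from the rule.

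The most abundant member by far in both assays was GLT1 (AT5G53460, chr5:21700187-21710296, plus strand), the NADH-dependent glutamate synthase of nitrogen assimilation. It had 196.2 TPM in Ribo-seq and 220.9 TPM in RNA-seq, from 438541 footprints and 94558 RNA-seq counts. SUS2 (AT1G80070), the plant PRP8 at the core of the spliceosome, came next in RNA-seq, with 44.1 TPM in Ribo-seq and 74.0 TPM in RNA-seq. CSI1 (AT2G22125), which links cellulose synthase to microtubules, had 47.5 TPM in Ribo-seq and 67.2 TPM in RNA-seq. ACC1 (AT1G36160), the cytosolic acetyl-CoA carboxylase that makes malonyl-CoA, had 29.3 TPM in Ribo-seq and 50.9 TPM in RNA-seq. All of these lay lower in Ribo-seq than in RNA-seq. The same held for the rest of the 10 most abundant members, of which AT5G40450, annotated as A-kinase anchor-like, came closest to parity with 45.2 TPM in Ribo-seq and 49.2 TPM in RNA-seq.

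To compare the assays, 0.1 was added to each TPM value and the log2 of Ribo-seq divided by RNA-seq was taken (the log2 ratio) wherever RNA-seq exceeded 0.1 TPM. This left 74 of the 78 members and 21348 shorter nuclear genes. Very long genes had fewer footprints for their RNA than shorter genes. Their median ratio was -0.99 (quartiles -1.36 and -0.51), against 0.12 (quartiles -0.42 and 0.57) for shorter genes, and 72 of 74 members lay below 0, against 43.5% of shorter genes. A ratio of -1 or lower, that is a Ribo-seq TPM at least 2-fold below the RNA-seq TPM (each plus 0.1), was seen in 36 of 74 members, beside 10.2% of all nuclear genes with a ratio. A ratio of 1 or higher was seen in 0 of 74, beside 8.46% of all nuclear genes. Members nonetheless differed widely among themselves, from -2.84 to 0.66.

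Counting error was small beside this spread. The exact binomial interval of footprints among both counts, placed around each ratio, had a median width of 0.09 and a largest width of 0.38 on the log2 scale. It lay entirely below 0 in 72 members and entirely above 0 in 2 members, and it crossed -1 in 5 members. The share of all nuclear genes with such intervals was not computed, so these counts cannot be read as particular to the members. Where 0 lies also depends on the scaling. These intervals cover counting error only, and reads copied in library amplification are not independent molecules. The order of the members in RNA-seq was largely kept in Ribo-seq (Spearman's rho of 0.92 across 74 genes, 0.94 across 21348 shorter genes, descriptive values over genes that share the same libraries).

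**Figure D1:**
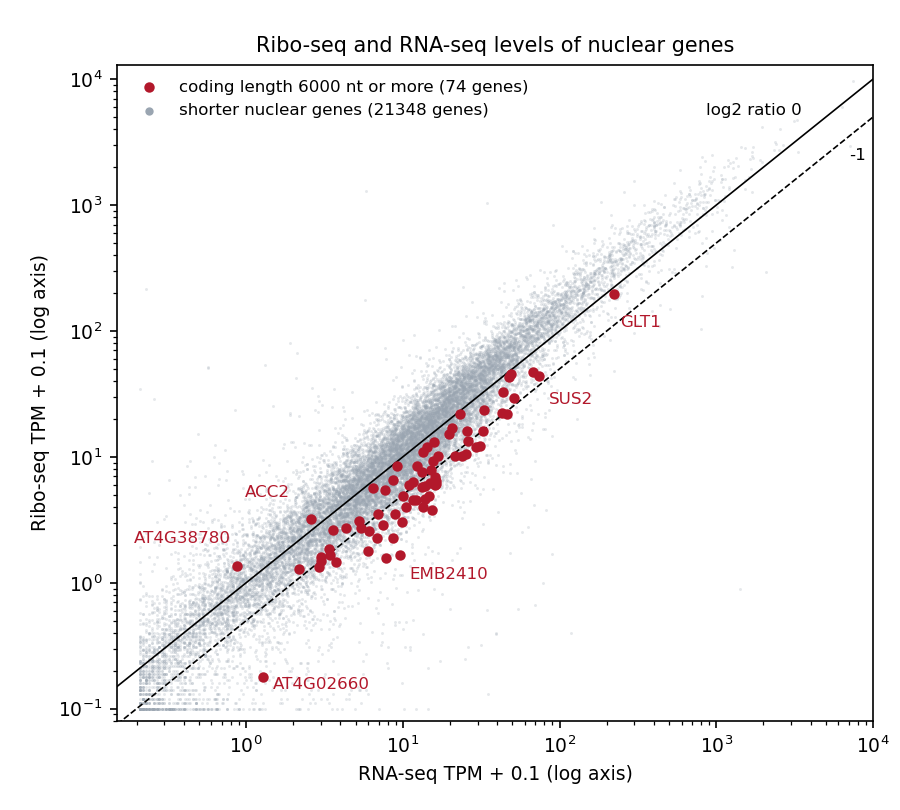
Ribo-seq TPM (vertical, log axis) against RNA-seq TPM (horizontal, log axis), each plus 0.1, with 1 point per nuclear gene: 74 very long coding genes in red and 21348 shorter genes in grey. The solid line marks a log2 ratio of 0 and the dashed line a ratio of -1. All but 2 red points (AT4G38780 and ACC2) lie below the solid line.

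The ratio varies with RNA level, so members were set beside shorter genes of like RNA level. Nuclear genes with a ratio were divided into 10 bins of equal size by RNA-seq TPM, and every shorter gene of a bin was used. The difference of a member from the median ratio of the shorter genes in its bin had a median of -1.09 (quartiles -1.47 and -0.74), which is 0.468 times the footprints at the same RNA level. In all, 72 of 74 members lay below that median, and 41 lay below it by 1 or more, beside 11.0% of all nuclear genes. The fullest bin (11.98 to 17.38 TPM) held 20 members, with a median of -1.23, and 2128 shorter genes, with a median of 0.12. In it all 20 members lay under the median of the shorter genes and 17 under their lower quartile.

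The gap was present at high RNA levels as well. In the bin from 27.14 to 55.07 TPM, 10 members had a median of -0.87, against 0.38 for 2132 shorter genes, and all 10 lay under the lower quartile of the shorter genes. The highest bin was wide (55.08 to 7469.75 TPM), so RNA levels in it were less alike. Its 3 members (GLT1, SUS2 and CSI1) had ratios of -0.75 to -0.17, against a median of 0.54 for 2140 shorter genes. GLT1, with a ratio close to 0, differed by -0.71 from the median of the shorter genes in this bin. The exceptions were confined to the lower bins. They were ACC2, which lay 0.33 above its bin, and AT4G38780, which lay 0.71 above it.

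**Figure D2:**
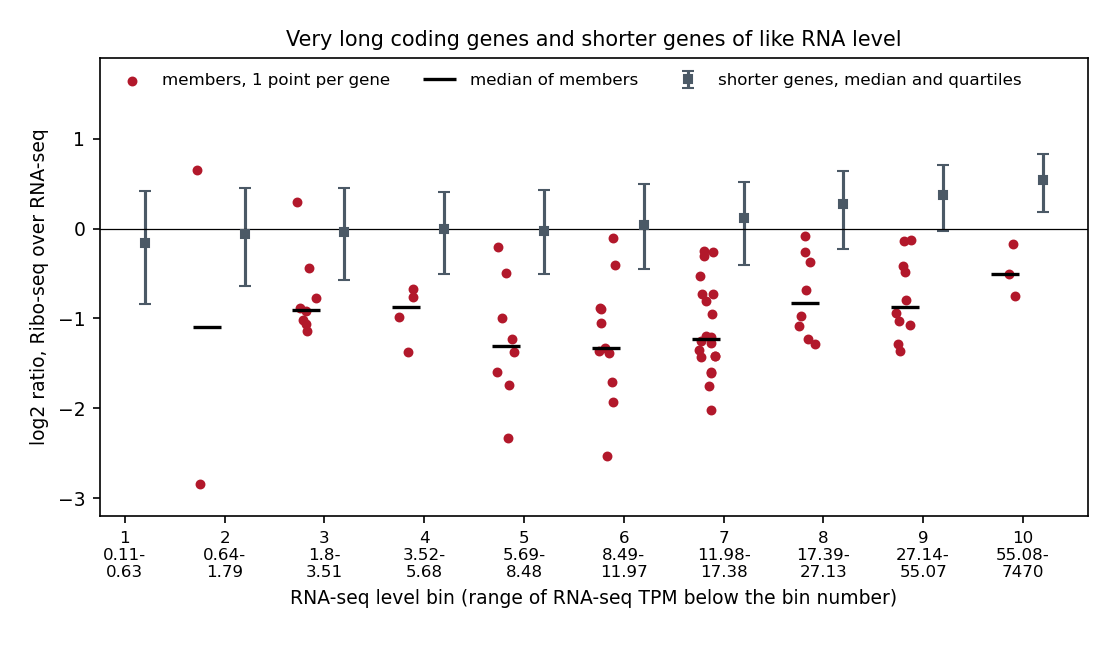
Log2 ratio of Ribo-seq over RNA-seq (vertical) in 10 bins of RNA-seq TPM (horizontal, ranges given under the bin numbers). In each bin red points are single members with their median as a black line, on the left, and the grey square with bars is the median and quartiles of the shorter genes, on the right. From the fourth bin upward every red point lies under the grey median.

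The low ratio was the end of a gradual trend with coding length rather than a step at 6000 nucleotides. The median ratio was -0.15 for genes under 300 nucleotides, highest at 0.31 for genes of 600 to 1000 nucleotides, and 0.06 at 1500 to 2000 nucleotides. It was -0.39 at 3000 to 4000 nucleotides and -0.69 at 5000 to 6000 nucleotides. Among the members it was -0.92 for the 51 genes of 6000 to 8000 nucleotides and -1.21 for the 23 genes of 8000 nucleotides or more. The share of genes at -1 or lower was 60.9% in the longest class and 43.1% at 6000 to 8000 nucleotides, against 29.6% at 5000 to 6000 nucleotides, 7.08% at 600 to 1000 nucleotides and 26.7% under 300 nucleotides. The low start depended on the scaling: with CPM over nuclear genes (each count as a share of all nuclear counts) the shortest class had the highest median, 0.88, and the longest again the lowest, -1.84. Within the members the relation of ratio and length was weak (Spearman's rho of -0.24 across 74 genes, a description), and it was similar among shorter genes (-0.20 across 21348 genes). MDN1, the longest of all, had a ratio of -0.53.

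**Figure D3:**
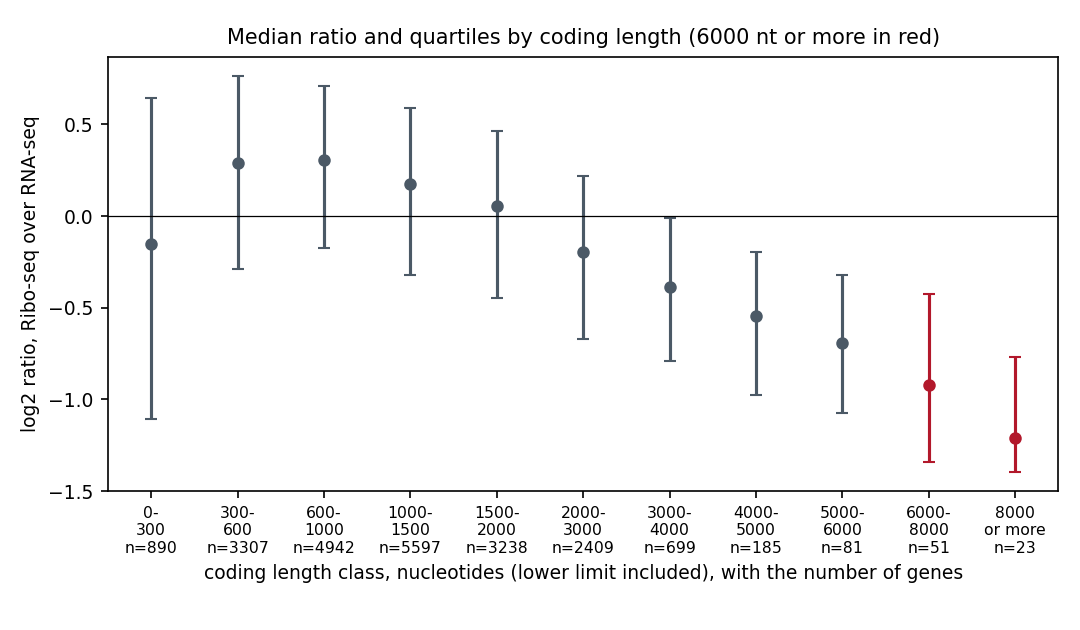
Median log2 ratio of Ribo-seq over RNA-seq (points) with quartiles (bars) in 11 classes of coding length in nucleotides, with the number of genes under each class. Classes of 6000 nucleotides or more are in red. The medians descend from 0.31 at 600 to 1000 nucleotides to -1.21 at 8000 nucleotides or more.

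Several members are copies of one another, which bears on how reads can be assigned. In 8 pairs the proteins were at least 70% identical over at least 70% of the shorter. A footprint is about 28 nucleotides long, and a stretch of 28 identical nucleotides in both coding sequences (a shared 28-mer) can yield footprints that match both genes. For 57 of the 78 members no 28-mer occurred in another coding sequence. The pairs held all 12 members with more than 2% of shared 28-mers. Stretches of 100 nucleotides, the length of an RNA-seq read, were shared in 2 members only, UPL1 and UPL2. Expected counts, as printed in both tables, had no fractional part in any of the 78 members, and how reads that match both copies were handled was not tested. The longest shared run is printed below for 3 pairs and for the most alike pair. In those 3 pairs the copy with less RNA had the largest excess of footprints per RNA count (2.15-fold or more, rounded). The 2 pairs with the opposite direction are given by value only. Capitals mark the run that is identical in both copies, and 6 bases on each side are in lower case. All are read 5′ to 3′ on the coding strand of TAIR10.1, within 1 coding exon.
ACC2 (chr1:13552939-13553031, plus strand, coding exon 20): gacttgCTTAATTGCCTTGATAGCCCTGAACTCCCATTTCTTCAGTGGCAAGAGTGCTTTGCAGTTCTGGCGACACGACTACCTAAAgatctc
ACC1 (chr1:13538367-13538459, plus strand, coding exon 19): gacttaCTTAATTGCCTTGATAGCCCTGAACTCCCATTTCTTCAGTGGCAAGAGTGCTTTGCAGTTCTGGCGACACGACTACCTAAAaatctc
AT4G38780 (chr4:18108528-18108592, minus strand, coding exon 6): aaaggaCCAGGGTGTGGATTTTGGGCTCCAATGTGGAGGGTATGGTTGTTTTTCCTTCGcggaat
SUS2 (chr1:30120467-30120531, plus strand, coding exon 6): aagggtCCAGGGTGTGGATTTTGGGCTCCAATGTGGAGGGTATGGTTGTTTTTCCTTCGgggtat
TIL2 (chr2:11583510-11583595, plus strand, coding exon 9): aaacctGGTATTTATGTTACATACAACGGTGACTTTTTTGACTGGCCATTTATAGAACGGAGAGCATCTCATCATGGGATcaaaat
TIL1 (chr1:2593465-2593550, plus strand, coding exon 9): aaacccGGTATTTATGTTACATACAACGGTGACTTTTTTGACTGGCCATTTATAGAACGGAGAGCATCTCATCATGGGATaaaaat
UPL1 (chr1:20887802-20887954, minus strand, coding exon 4): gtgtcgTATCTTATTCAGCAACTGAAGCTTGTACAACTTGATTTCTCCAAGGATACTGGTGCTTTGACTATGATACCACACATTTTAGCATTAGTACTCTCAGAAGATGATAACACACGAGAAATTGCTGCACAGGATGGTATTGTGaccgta
UPL2 (chr1:26496486-26496638, minus strand, coding exon 4): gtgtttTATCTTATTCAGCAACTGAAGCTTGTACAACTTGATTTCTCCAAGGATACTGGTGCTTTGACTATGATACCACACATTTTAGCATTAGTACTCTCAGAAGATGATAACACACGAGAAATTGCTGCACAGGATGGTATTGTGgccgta

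ACC1 and ACC2 are adjacent genes, 1949 bases apart, whose proteins were 90.3% identical. ACC2 is the form imported into plastids, where acetyl-CoA carboxylase starts fatty acid synthesis. ACC2 had 7378 footprints and 1143 RNA-seq counts, or 6.45 footprints per RNA-seq count (exact 95% interval 6.06 to 6.88), against 3.00 (2.96 to 3.05) for ACC1. Its ratio of 0.30 (interval 0.21 to 0.39) was 1 of the only 2 above 0. The pair shared runs of up to 81 nucleotides, and 8.67% of the 28-mers of ACC1 occur in ACC2. Spread evenly along ACC1, its 66864 footprints would place 5795 on those shared 28-mers.

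AT4G38780 is annotated as a splicing factor like PRP8, and its protein was 93.5% identical to SUS2. It had 2990 footprints and 348 RNA-seq counts, or 8.59 per RNA-seq count (7.69 to 9.63), against 3.10 (3.07 to 3.14) for SUS2. It held the highest ratio of all members, 0.66 (interval 0.49 to 0.82), while SUS2 had -0.75. Its footprints amounted to 2.84% of those of SUS2 and its RNA-seq counts to 1.03%. The same arithmetic gives 3611 footprints of SUS2 on the 3.43% of 28-mers that AT4G38780 shares, which is more than AT4G38780 had.

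TIL1 and TIL2 encode the catalytic subunit of DNA polymerase epsilon, which copies DNA in S phase. TIL2 had 524 footprints but 12 RNA-seq counts, or 43.7 per RNA-seq count (24.8 to 85.1), against 3.92 (3.78 to 4.07) for TIL1 with 14025 footprints and 3577 RNA-seq counts. At 0.03 TPM in RNA-seq, TIL2 received no ratio. Even coverage would place 1012 footprints of TIL1 on shared 28-mers, again more than TIL2 had. In these 3 pairs the assignment of footprints between the copies was not tested, and the scaling matters for the sign. With CPM over nuclear genes in place of TPM, ACC2 had a ratio of -0.29 and AT4G38780 of 0.12, where the median of all nuclear genes was -0.21. With counts over the whole coding length they had -0.55 and -0.14, where that median was -0.47, so under that scaling neither lay above 0.

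Not every pair showed this. UPL1 and UPL2, HECT-type ubiquitin ligases with 94.1% identical proteins and 30.1% of the 28-mers of UPL1 shared, had nearly equal ratios of -0.97 and -1.07. In the pair with PI3K-like kinase and FAT domains, AT4G36080 had a ratio of -1.05 and AT2G17930 of -1.42. In the other direction, AT4G02660 had 0.369 footprints per RNA-seq count (0.323 to 0.421), against 1.91 (1.86 to 1.95) for SPIRRIG, and AT2G42270 had 2.27 (2.12 to 2.43), against 4.73 (4.66 to 4.80) for EMB1507. Even coverage would place 2710 footprints of EMB1507 on shared 28-mers, nearly the same as the 2705 that AT2G42270 had. For EMB2788 it would place 189, beside the 94 of AT1G72270. For SPIRRIG, UPL2 and AT2G17930 it gave fewer than the other copy had. These numbers assume even coverage, and the assignment of footprints was not tested in these pairs either. The copy with fewer RNA-seq counts had more footprints per count in 6 of the 8 pairs and fewer in 2, and for AT1G72270 (3.61 to 11.6) and EMB2788 (4.47 to 4.83) the intervals overlapped. RNA-seq counts both order the copies and divide the footprints, so the ordering itself favours the first direction. No conclusion is drawn from this tally. Without the members of these pairs, all 60 remaining members lay below the shorter genes of their RNA level.

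**Figure D4:**
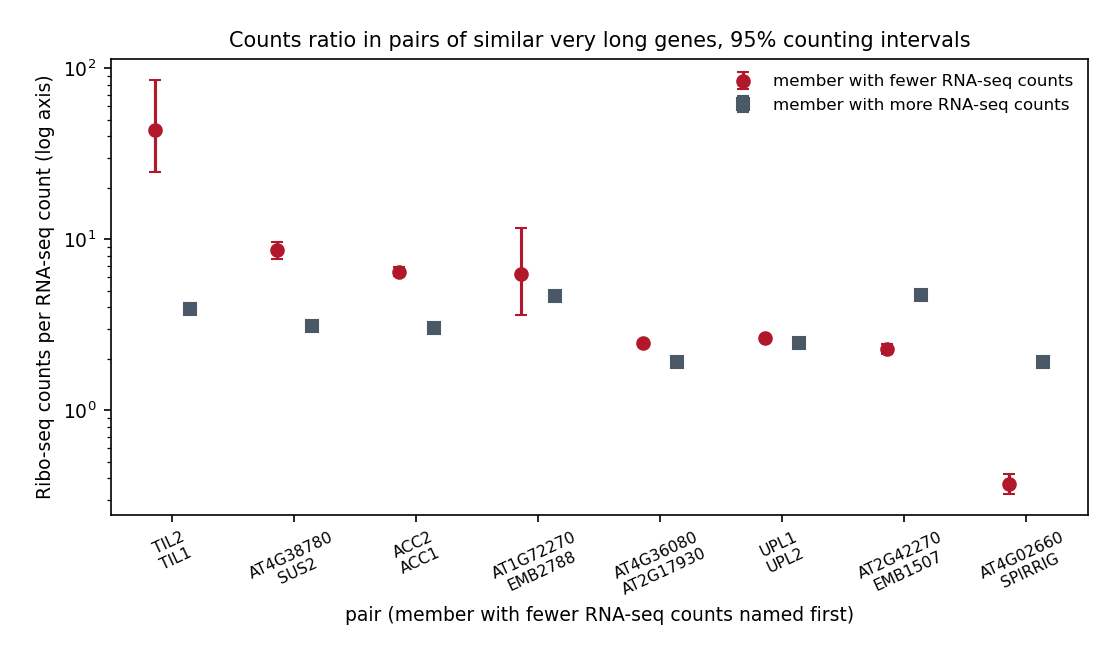
Ribo-seq counts per RNA-seq count (vertical, log axis) in 8 pairs of very long genes with similar proteins (horizontal). In each pair the red circle is the copy with fewer RNA-seq counts and the grey square the copy with more. Bars are exact 95% intervals of counting error. TIL2 stands highest at 43.7 and AT4G02660 lowest at 0.369.

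Grouped by annotated role, the members differed in how far their Ribo-seq TPM lay below their RNA-seq TPM. The groups were set from symbols, product names and domains, and several hold few genes. Counts at -1 or lower in a group stand beside 36 of all 74 members and 10.2% of all nuclear genes with a ratio. Median coding length differed too, from 6432 nucleotides in cytoskeleton and cell division to 11012 in ubiquitin ligases and protease. It was 9060 in membrane traffic and lipid transfer and 6582 in chromatin and transcription. The part of length in the group differences was not tested. Chromatin and transcription genes (9 members) had a median ratio of -1.36, and 8 of the 9 lay at -1 or lower. CCT (AT4G00450), the Mediator subunit MED12, was lowest with 3.70 TPM in Ribo-seq and 15.3 TPM in RNA-seq, a ratio of -2.01. PIE1 (AT3G12810), the motor of the SWR1 complex that deposits the histone variant H2A.Z, had 2.18 TPM in Ribo-seq and 6.77 TPM in RNA-seq, a ratio of -1.59. The SWI/SNF ATPases SYD and BRM had ratios of -1.28 and -1.23. The histone H3 methyltransferase SDG2 (-1.39), the methyl-CpG-binding gene MBD9 (-1.38), the CHD-type remodeler CHR4 (-1.36) and RGD3 (-1.20) lay close to them. MOM1, which maintains gene silencing, was the highest of the group at -0.98.

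Genes of membrane traffic and lipid transfer (14 members) had a median ratio of -1.35, and 12 of the 14 lay at -1 or lower. The lowest of all members was AT4G02660 (chr4:1159494-1174321, minus strand), a BEACH and WD40 domain gene. It had 0.08 TPM in Ribo-seq and 1.19 TPM in RNA-seq, from 308 footprints and 834 RNA-seq counts, a ratio of -2.84 (interval -3.03 to -2.65). Its relative SPIRRIG (AT1G03060), needed for the branched shape of leaf hairs, had 5.88 TPM in Ribo-seq and 15.9 TPM in RNA-seq, a ratio of -1.42. The remaining BEACH genes, AT1G58230 and AT2G45540, had ratios of -1.33 and -1.29. Genes annotated as vacuolar protein sorting-associated, AT3G50380 (-1.93) and SHRUBBY (-1.74), were low as well. SABRE (AT1G58250), which acts in cell expansion, had 4.41 TPM in Ribo-seq and 11.5 TPM in RNA-seq, a ratio of -1.37. The DNAJ-domain gene GRV2 of endosome traffic had -1.09, and MIP2, of transport between Golgi and ER, had -0.88.

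Ubiquitin ligases and the calpain protease (6 members) had a median of -1.02. DEK1 (AT1G55350), the calpain that sets epidermal identity, had 4.51 TPM in Ribo-seq and 13.8 TPM in RNA-seq, a ratio of -1.59. BIG had 114664 footprints and 42799 RNA-seq counts, with 22.3 TPM in Ribo-seq and 42.8 TPM in RNA-seq and a ratio of -0.94. The highest was PRT6, a ubiquitin ligase of the N-degron pathway, at -0.37. Genes annotated to the PI3K-like kinase family or as lipid kinases (6 members) had a median of -0.91. Whether all of them encode active kinases was not examined. TOR (AT1G50030), the growth-controlling kinase, had 10.06 TPM in Ribo-seq and 16.7 TPM in RNA-seq, a ratio of -0.73. Of the DNA damage kinases, ATM had -1.37 at 3.65 TPM in RNA-seq and ATR had -0.77 at 2.09 TPM in RNA-seq.

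Cytoskeleton and cell division genes had a median of -0.78 over 6 members with a ratio. The kinesins POK1 and POK2, which position the division plane, had ratios of -0.44 and -0.67, from 5331 and 7360 footprints. CSI1 (-0.50) lay above its relative CSI3 (-0.996). The SCAR gene WAVE5 of actin nucleation was lowest at -1.23, and the separase ESP had -0.89. Among DNA replication and repair genes, TIL1 had -0.41, and AT4G32700, annotated as like MUS308 and mammalian DNA polymerase, had -1.06.

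Of the 10 groups, the median ratio was nearest to 0 in primary metabolism, followed by ribosome assembly and translation and by splicing and RNA. Within RNA bins the order changed. The median difference from shorter genes was -0.37 in ribosome assembly and translation, -0.69 in splicing and RNA and -0.71 in primary metabolism (3 genes). It was -0.74 in DNA replication and repair. Splicing and RNA genes (6 members) had a median ratio of -0.37. EMB1507 (AT1G20960), a U5 snRNP helicase known as BRR2, had 43.3 TPM in Ribo-seq and 47.8 TPM in RNA-seq, a ratio of -0.14. Of the other genes with the same annotated product, AT5G61140 had -0.25 and AT2G42270, the lowest of the group, had -1.14. SUS2, at -0.75, also lay under the median of the group. AT1G02080, whose annotation names a Not1 domain of the CCR4-Not complex that shortens poly(A) tails, had 23.5 TPM in Ribo-seq and 32.9 TPM in RNA-seq, a ratio of -0.48. Ribosome assembly and translation genes had a median ratio of -0.23 over 6 members with a ratio, none at -1 or lower. AT3G06530, with a domain of a U3 snoRNA-associated protein, had 21.9 TPM in Ribo-seq and 23.2 TPM in RNA-seq, a ratio of -0.08 (interval -0.12 to -0.05). AT4G30150, of the Urb2/Npa2 family, had -0.11, EMB2788 had -0.20 and AT4G30990 had -0.26. ILITHYIA (AT1G64790), the plant counterpart of the yeast translation regulator GCN1, had 32.7 TPM in Ribo-seq and 43.7 TPM in RNA-seq, a ratio of -0.42. The 3 genes of primary metabolism, GLT1, ACC1 and ACC2, had ratios of -0.17, -0.79 and 0.30, with a median of -0.17.

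**Figure D5:**
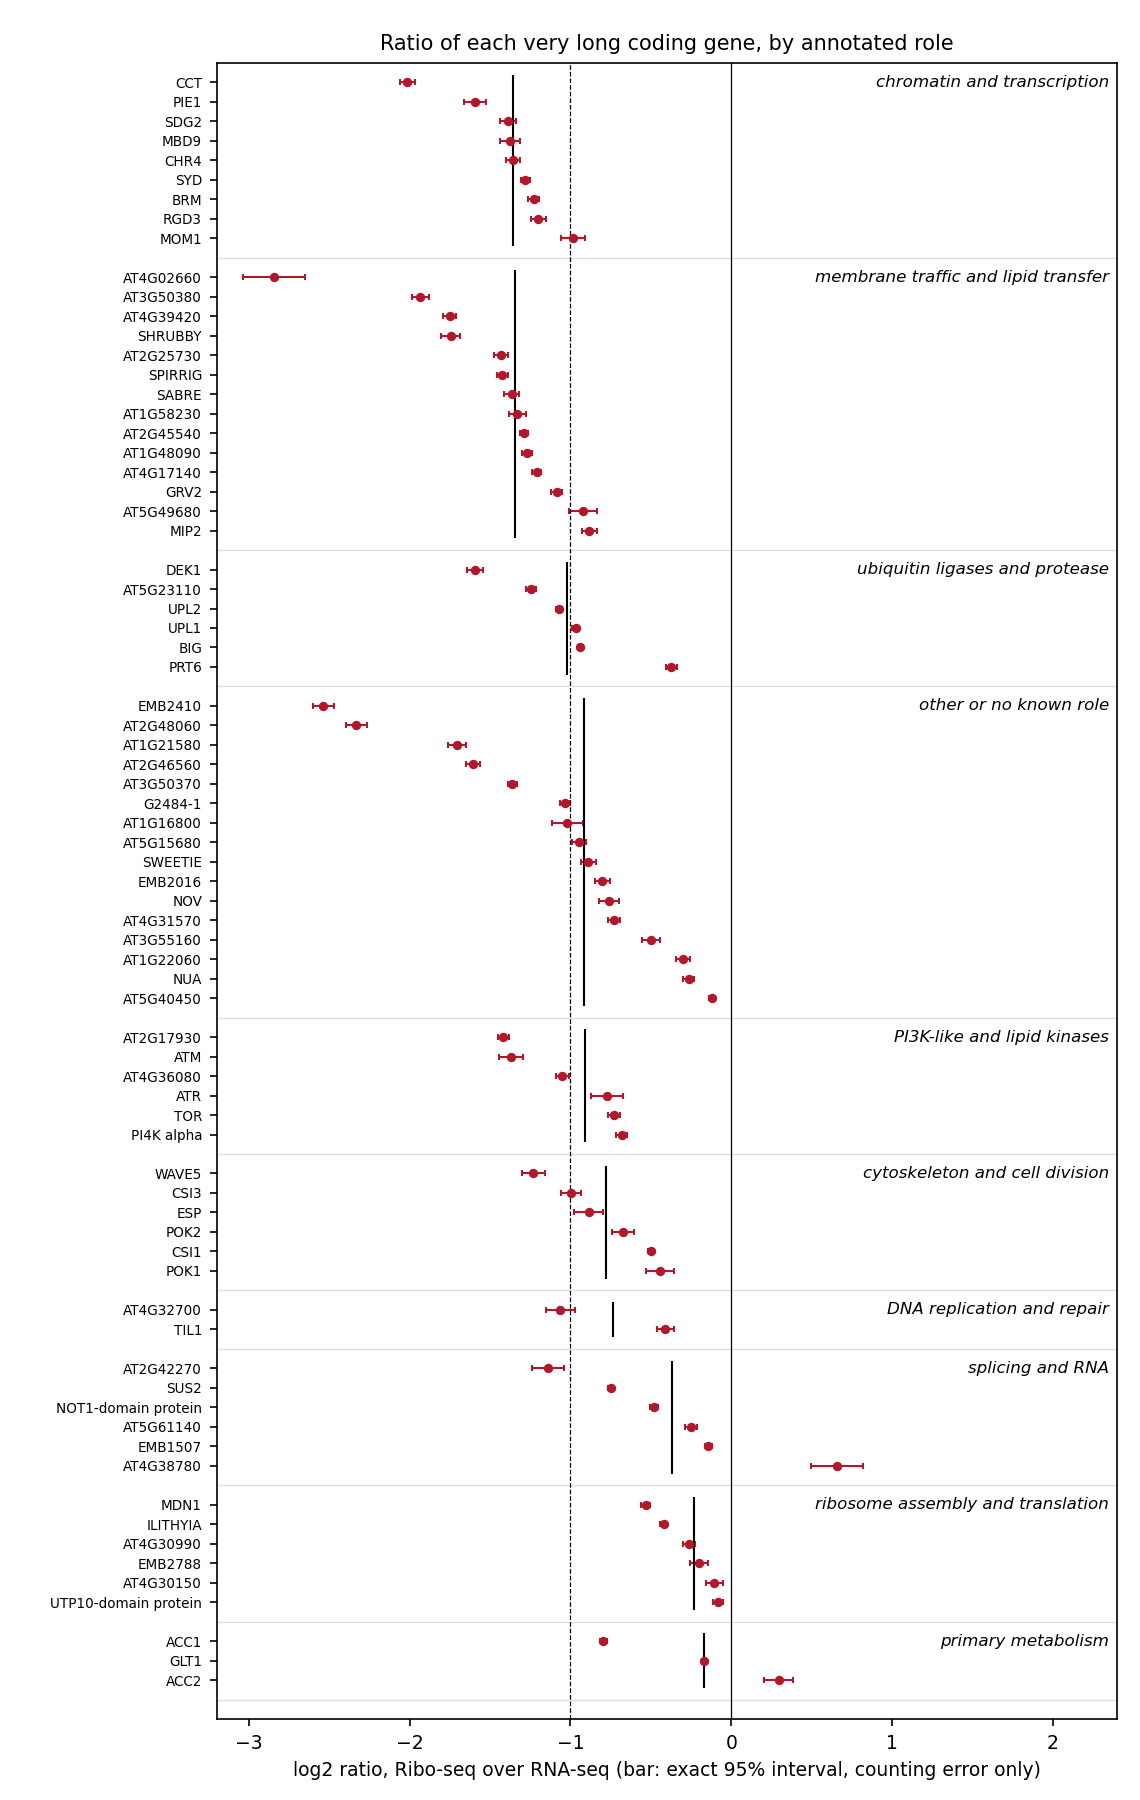
Log2 ratio of Ribo-seq over RNA-seq (horizontal) of each of the 74 members with a ratio, in 10 groups by annotated role ordered by their median (black vertical line). Bars are exact 95% intervals of counting error, the solid line marks 0 and the dashed line -1. Chromatin and membrane traffic genes lie mostly left of the dashed line, and ribosome assembly genes all lie right of it.

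The other members had no common role, and their ratios ran from -2.54 to -0.12 over 16 genes. EMB2410 (AT2G25660, chr2:10915307-10927702, minus strand), needed in embryo development, had 1.56 TPM in Ribo-seq and 9.53 TPM in RNA-seq, a ratio of -2.54. AT2G48060, annotated as a piezo-type mechanosensitive ion channel component, had 1.46 TPM in Ribo-seq and 7.75 TPM in RNA-seq, a ratio of -2.33. At the upper end were the nuclear pore anchor NUA (-0.27) and AT5G40450 (-0.12). Thus members of like length and RNA level differed by more than 2 on the log2 scale. EMB2410 and AT4G30150, at 6468 and 6028 nucleotides, had 9.53 and 9.02 TPM in RNA-seq but 1.56 and 8.37 TPM in Ribo-seq.

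Very long genes had more coding exons than shorter genes, a number that was not scaled by coding length and so follows in part from the rule. Their coding length had a median of 7003.5 nucleotides, against 1029 nucleotides. They had a median of 22 coding exons, against 3 in shorter genes, with a range from 1 (AT2G42270) to 78 (ATM). Their genomic span, which contains the coding sequence and so follows in part from the rule, had a median of 11851 bases, against 2075 bases. The GC content at the third codon position had a median of 37.6%, against 42.1% in shorter genes. By chromosome, 26 of the 78 members lay on chromosome 1 and 16 on chromosome 4, which hold 26.1% and 15.2% of nuclear genes. Chromosomes 2, 3 and 5 held 12, 13 and 11 members, beside 15.7%, 19.9% and 23.1% of nuclear genes. Within the members, the ratio had a Spearman's rho of 0.05 with the number of coding exons and of 0.37 with GC at the third codon position (74 genes). These are descriptions across genes.

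The annotated 5′ leader, the part of the mRNA before the coding sequence, also differed. It had a median of 208 nucleotides in members and 144 nucleotides in shorter genes, with genes that have no annotated leader entered as 0. A leader was annotated for 72 of 78 members and for 23145 of 27366 shorter genes. Of members with an annotated leader, 53 of 72 (73.6%) had at least 1 ATG in it, against 59.0% of shorter genes. An ATG upstream of the coding sequence (searched as ATG in any frame of the mature leader, sense strand) can start an upstream open reading frame, and such frames are known to lower translation of the main frame in many plant mRNAs. The 52 members with a ratio and such an ATG had a median ratio of -1.08 and 29 of them lay at -1 or lower. The 17 members without one had a median of -0.27 and 3 lay at -1 or lower. Shorter genes with and without such an ATG had medians of 0.01 and 0.30, a smaller gap, and 11.7% and 4.39% of them lay at -1 or lower.

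The relative standing within RNA bins was similar, at -1.33 for members with an upstream ATG and -0.65 for those without. Members without an upstream ATG thus also had a median below the shorter genes of their RNA level. The leaders with an ATG were longer, with medians of 305 and 160 nucleotides in members with and without one, and the roles differed too. Of ribosome assembly genes 4 of 6 had no upstream ATG, and of chromatin genes 0 of 7. AT4G02660 had 10 and CCT had 7 upstream ATGs. TIL1 had 36 in an annotated leader of 2090 nucleotides, yet a ratio of -0.41. The part of upstream ATGs, leader length or role in the ratio was not tested.

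The 4 members without a ratio had 0.03 to 0.06 TPM in RNA-seq, from 12 to 23 RNA-seq counts. Besides TIL2 they were CSI2, AT1G72270 and AT3G28770. CSI2 (AT1G44120), a relative of CSI1, had 33 footprints and 16 RNA-seq counts. AT1G72270, annotated as a nucleolar pre-ribosomal-associated protein like its copy EMB2788, had 94 footprints and 15 RNA-seq counts. AT3G28770, annotated as a putative transmembrane protein, had 5 footprints and 23 RNA-seq counts and was listed at 0 TPM in Ribo-seq. No member had fewer than 10 RNA-seq counts.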

How the data were processed

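Values came from a pair of RSEM tables, 1 for each assay. Per the file headers they hold expected counts, TPM and FPKM, which the authors deposited as RSEM computed them from coding sequences. Expected counts are estimated and not normalized, and TPM is scaled by effective length and by the total of all genes. The deposited FPKM values did not enter any computation. Ribo-seq was single-end (50 nucleotides) and RNA-seq paired-end (100 nucleotides). Tools in the submitters' processing notes are RSEM 1.3.1, STAR and Bowtie2 2.3.4.1. Neither the genome build nor the way in which 6 libraries became 1 column is given in the sources used here. Effective length was 27 nucleotides under coding length in Ribo-seq and 186 under it in RNA-seq. Organelle genes took 3.71% of Ribo-seq and 29.0% of RNA-seq counts and stay in the TPM totals.

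Ratios, bins and intervals are as described above. Positions, sequences and features came from TAIR10.1 (27444 of 27445 nuclear genes matched), using the isoform nearest in coding length. Proteins were compared with BLAST+ 2.17.0. Python 3.11.15, numpy 2.4.6, pandas 2.3.3, scipy 1.17.1, Biopython 1.88 and matplotlib 3.10.9 were used, and the ratio and bin scripts were tested on simulated data. No comparison has a replicate test.

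Members, roles and alternatives were chosen with earlier results of these data known. Named genes are the 10 members with the highest RNA-seq TPM, the 5 longest, the 6 highest and 6 lowest ratios with at least 100 RNA-seq counts, the 8 similar pairs, 20 members listed by symbol and the genes next to the limit. Other members named by role were added after their values were seen. Alternatives changed the pseudocount, scaling, filter, limit, length source, bins and comparison genes.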

Additional observations from a re-analysis of the deposited data

How the results depend on the processing

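Both medians of the members (the ratio and the difference within RNA bins) stayed below 0 under every alternative run. Of 49 recomputed summary values, 11 left the 95% interval of the value reported (for medians, from the ranks of the genes). Such intervals take the genes as random draws, which they are not, so they serve only as a yardstick of size. With CPM over nuclear genes the median ratio of the members was -1.61, 82.4% lay at -1 or lower, and the difference within RNA bins was -1.53. With counts over the whole coding length these were -1.85, 93.2% and -1.41. With TPM rescaled over nuclear genes the median was -1.43 and 73.0% lay at -1 or lower, while the difference within bins, -1.10, stayed. Calls at -1 or lower, against none at 1 or higher, numbered 61, 69 and 54 members under these scalings, against 36. The median of all nuclear genes moved as well, to -0.21, -0.47 and -0.32, against 0.12, so the members differed from it by -1.40, -1.39 and -1.12. The share of all nuclear genes at -1 or lower was not computed under these scalings. The higher counts of members at -1 or lower can therefore not be read as particular to the members. With a limit of 7500 nucleotides the median ratio was -1.21, 62.1% lay at -1 or lower, and the difference within bins was -1.36 over 29 genes. Without the similar pairs, an alternative chosen after seeing the data, the median was -1.01 over 60 genes. Among 43 named genes the ratio moved beyond its counting interval in 29 with a pseudocount of 1 and in 43 with either count scaling, with 0 changes of sign in ratios past 1 in size. Of the smaller ratios, ACC2 (0.30) had -0.29 with CPM and -0.55 over the whole coding length, where AT4G38780 (0.66) had -0.14. No member's product names a transposon, virus or pseudogene, so leaving such genes out changed nothing. No paired analysis was possible because the tables hold 1 pooled value per gene and assay. Leaving out libraries was not possible for the same reason, and variation between libraries is unknown.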
